A study of Mus musculus with 16 samples.

Results

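The irradiation response of the cerebral cortex was compared between 2 mouse genotypes as a difference of differences. The change after irradiation in mice labelled Neil1 knockout was taken, and the change in wild-type mice was subtracted from it. All 16 arrays of the series enter this quantity, which is called the interaction here. It was computed for 32121 of 56605 probes, those whose signal was flagged as well above background on all 16 arrays. A positive interaction means a larger rise or a smaller fall in the labelled knockout. Every level is a log2 processed signal relative to the 75th percentile of its own array, and every difference is a log2 difference.

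The 4 groups of 4 samples from male mice were wild type after sham exposure, wild type after 6 Gy of whole-body gamma rays given at 0.74 Gy/min, labelled knockout after sham, and labelled knockout after the same dose. Cortex was taken 20 h after exposure. Mice of both genotypes, wild type being littermates, are labelled 28 to 42 weeks old, on a C57BL/6 background reached by backcrossing. The treatment protocol, written for the mice in general and so for sham and irradiated groups alike, has injections of BrdU at 100 mg/kg, one before exposure and one at 2 h. BrdU is a thymidine analogue that marks cells copying their DNA. Each array held RNA of whole cortex, with all cell types mixed. The labels number 4 replicates per group without saying that each is a separate mouse, so p-values measure the spread between these samples, which may in part be technical, and the deleted stretch of Neil1 is left unnamed in the labels.

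NEIL1 is a DNA glycosylase that cuts oxidised bases out of DNA, the opening step of base excision repair. Ionising radiation also breaks DNA strands, and the break response activates the transcription factor p53, which raises genes for cell cycle arrest, cell death and repair. DNA fragments that reach the cytosol can activate interferon signalling, while microglia and oligodendrocyte precursors are brain cells known to react to radiation. The study is titled for neurogenesis and neuroinflammation under stress, and the interaction addresses whether loss of NEIL1 alters the cortical response to radiation.

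The layout of the arrays sets limits on the interaction. Per the file headers, all wild-type arrays lay on 1 slide and all labelled knockout arrays on another, with sham arrays in row 1 and irradiated arrays in row 2 of each slide. Genotype and slide therefore cannot be told apart, nor can irradiation and row. An additive effect of slide or row cancels in the interaction, but a row effect that differs between the slides cannot be told apart from it. Wild-type arrays had a 75th percentile of 1605 ± 191 intensity units (SD, n = 4) after sham and 1524 ± 167 after irradiation. For labelled knockout arrays it was 1196 ± 226 after sham and 899 ± 213 after irradiation. After irradiation the labelled knockout arrays were all dimmer than the wild-type arrays (exact permutation test, two-sided p = 0.0286, the smallest that 4 against 4 allow; adjusted over 4 comparisons p = 0.114). Sham arrays of the labelled knockout were also dimmer on average than wild-type sham arrays (same test, exact p = 0.0571, adjusted p = 0.114). Irradiated against sham arrays gave an exact p of 0.543 in wild type and 0.114 in the labelled knockout by the same test. None of the 4 comparisons had an adjusted p under 0.05. The cortical neuron marker Slc17a7, the interneuron markers Gad1 and Gad2, the astrocyte marker Aqp4, the microglial marker Cx3cr1 and the endothelial marker Cldn5 were above background on all 16 arrays. So were the T cell marker Cd3e, the choroid plexus markers Ttr and Folr1, the striatal marker Drd1 and the red cell marker Hba-a1. The striatal marker Drd2 was above background on 15 arrays, the red cell marker Alas2 on 14 and the B cell marker Cd79a on 0.

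No probe was called as differing in its irradiation response between the genotypes. With limma and Benjamini-Hochberg adjustment, 0 of 32121 probes were called at an adjusted p under 0.05 (0% of probes), and the smallest adjusted p was 1.0. At an unadjusted p under 0.05 there were 377 probes (1.17%), and by the brightest probe of each of 15575 named genes there were 104 (0.668%). Both shares lie below the share of 0.05 that this threshold gives on average when no probe has an interaction. Over other settings of the processing the share ran from 0.455% (only probes above the median level) to 5.54% (without the 2 dimmest irradiated labelled knockout arrays). Why it was low was not tested. The smallest unadjusted p was 0.00068, for Smgc. The median standard error of an interaction was 0.25, and the median half-width of its 95% interval was 0.53, a factor of 1.45. For 87.9% of probes this half-width was under 1, a 2-fold difference of responses. The precision grew with brightness, from a median half-width of 0.70 in the dimmest decile of kept probes to 0.40 in the brightest.

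None of the genes that radiation moved on average was called as moving differently in the 2 genotypes. For this the average of the 2 genotypes' responses was used, which with equal groups is independent of the interaction. By limma with Benjamini-Hochberg adjustment, 35 probes (0.109%) rose and 12 (0.0374%) fell on average, and 32 named genes were called by their brightest probe, 22 higher and 10 lower. All 32 changed in the same direction in both genotypes, and for all 32 the 95% interval of the interaction included 0. Their interactions ran from -0.35 for Gpr17, a receptor of oligodendrocyte precursors, to 0.30 for 9030619P08Rik, and the smallest unadjusted p among them was 0.111. For 29 of the 32, both bounds of that interval were smaller in size than the average response itself. The selection largely fixes this count and the shared direction, so neither tests for equal responses. A called gene needs an average response far above its standard error, which had a median of 0.12 against 0.25 for the interaction. Over all 15575 named genes the wild-type and labelled knockout changes correlated weakly (Pearson r 0.26, Spearman rho 0.20, across genes, which share the same 16 arrays and are not independent replicates).

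**Figure D1:**
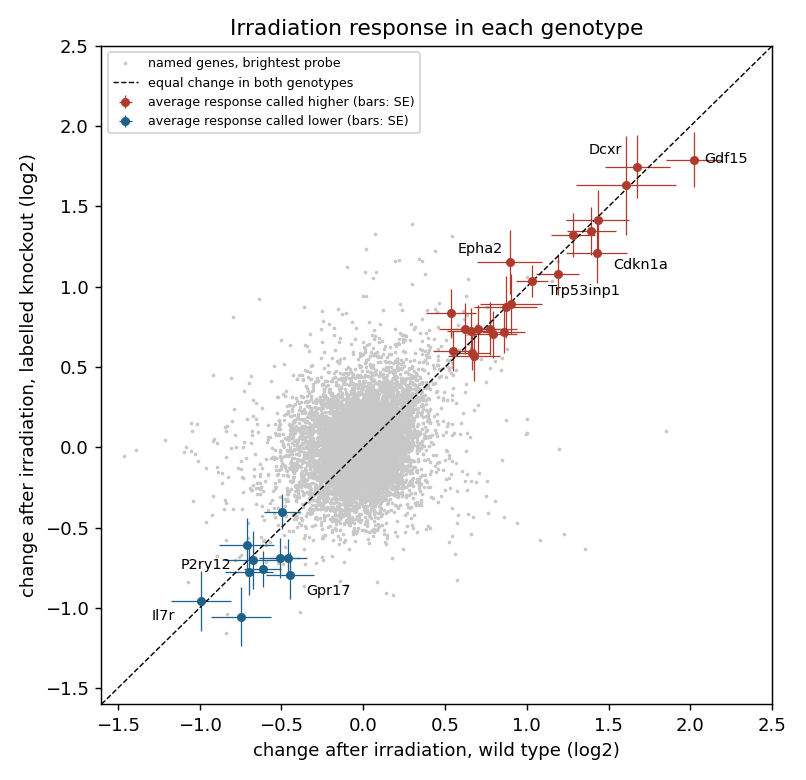
Change after irradiation in wild type (x axis, log2) against the change in the labelled knockout (y axis, log2), for the brightest probe of 15575 named genes in grey. The 22 genes called higher on average (red) and the 10 called lower (blue), with standard errors as bars, lie along the dashed line of equal change, from Il7r at -0.99 and -0.96 to Gdf15 at 2.02 and 1.79.

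Several p53 targets were among the strongest rises. Gdf15, a stress-induced cytokine, stood at -5.65, -5.80, -5.77 and -5.12 in the 4 wild-type sham samples and at -3.72, -3.49, -3.49 and -3.55 after irradiation. In the labelled knockout it stood at -5.41, -5.98, -5.84 and -5.33 in sham and at -3.63, -3.93, -3.97 and -3.87 after irradiation. Irradiated and sham arrays were far apart in both genotypes, and the sham arrays of the genotypes overlapped. The rise was 4.06-fold in wild type and 3.46-fold in the labelled knockout, an interaction of -0.23 ± 0.24 (SE) with a 95% interval from -0.74 to 0.28.

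Cdkn1a, which encodes the cell cycle inhibitor p21, went from -0.23, -0.13, -0.54 and -0.61 in wild-type sham to 1.34, 1.32, 0.96 and 0.59 after irradiation. Labelled knockout arrays went from 0.29, -0.15, -0.43 and 0.01 to 1.33, 0.95, 1.12 and 1.16. The irradiated arrays of the 2 genotypes overlapped, as did the sham arrays, and the responses of 2.69-fold and 2.32-fold differed by -0.22 ± 0.26.

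Trp53inp1, a p53-induced regulator of autophagy and cell death, gave a narrower interval. Its levels were -0.38, -0.29, -0.06 and -0.12 in wild-type sham and 0.72, 0.91, 0.84 and 0.80 after irradiation. They were -0.46, -0.34, -0.31 and -0.45 in labelled knockout sham and 0.78, 0.54, 0.58 and 0.69 after irradiation. The interaction was 0.01 ± 0.14, with an interval from -0.29 to 0.31, that is 0.818 to 1.24 as a ratio of folds. A second, much dimmer probe of the gene at a mean level of -4.36 gave 0.54 ± 0.21 (unadjusted p = 0.021), so the 2 probes did not give the same answer.

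Other strong responders gave similar values in the 2 genotypes, with intervals of the interaction that include 0. Dcxr, a carbonyl reductase, rose by 1.68 in wild type and 1.75 in the labelled knockout, and Mgmt, a repair protein for alkylated guanine, by 1.40 and 1.35. Ephx1, the microsomal epoxide hydrolase, rose by 1.28 and 1.32, and the death receptor Tnfrsf10b by 1.19 and 1.08. Cox6b2, a cytochrome c oxidase subunit, rose by 1.43 and 1.42. Epha2, an ephrin receptor, rose by 0.90 and 1.15, the widest positive gap of these genes, with an interval of the interaction from -0.34 to 0.85.

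Over the whole p53 list, 47 of 50 members were tested and 24 had a positive interaction, with a median of 0.01. Among all named genes 43.9% were positive and the median was -0.03. By limma on brightest probes, none of the 47 had an unadjusted interaction p under 0.05, the smallest being 0.14 for Ercc5, a nuclease of nucleotide excision repair. The dimmer Trp53inp1 probe given above was under 0.05. Here and in the lists below, members are counted by their brightest probe. The average response was called higher for 12 of the 47 and lower for 0. Median responses of the list were 0.24 in wild type and 0.15 in the labelled knockout, with 40 and 42 members higher. The widest negative value, -0.68 for the antiproliferative gene Btg2, came with an SE of 0.52. Its sham arrays alone spanned -0.90 to 0.56 in wild type and -0.62 to 0.76 in the labelled knockout. Eda2r, Rrm2b and Gtse1 were above background on at most 8, 15 and 9 of 16 arrays and were left out, since the rule needs signal on every array and so drops genes that are dark in 1 group.

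Avil, an actin-binding protein of the villin family, rose by 1.61 and 1.63, with irradiated arrays between -3.78 and -2.41 in wild type and between -3.73 and -2.61 in the labelled knockout. Spc25, a kinetochore subunit, rose by 0.90 and 0.89, and Tubb6, a beta-tubulin, by 0.87 and 0.87. Their interactions were 0.03 ± 0.43, -0.01 ± 0.27 and 0.00 ± 0.27. The interval for Avil, from -0.90 to 0.95, was the widest of the 3.

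The 10 genes that fell on average were lower in both genotypes. P2ry12, the receptor by which resting microglia sense nucleotides, stood at 0.73, 0.93, 0.82 and 0.74 in wild-type sham and at 0.12, 0.09, 0.29 and 0.27 after irradiation. In the labelled knockout it stood at 0.52, 0.73, 0.55 and 0.20 in sham and at -0.36, -0.26, -0.20 and -0.21 after irradiation. Irradiated arrays lay below sham arrays in each genotype, and the falls of 0.61 and 0.76 gave an interaction of -0.14 ± 0.16, with an interval from -0.48 to 0.19. In RNA of a whole tissue, fewer cells of a type and less RNA per cell cannot be told apart.

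Gpr17, which marks oligodendrocyte precursors about to differentiate, had the most uneven fall of the called genes. Its levels were 2.94, 3.05, 2.76 and 3.11 in wild-type sham and 2.42, 2.39, 2.58 and 2.69 after irradiation. They were 2.59, 3.22, 2.94 and 2.62 in labelled knockout sham and 1.83, 2.12, 2.22 and 2.01 after irradiation. The fall was 0.45 in wild type and 0.80 in the labelled knockout, and the interaction of -0.35 ± 0.21 had an interval from -0.79 to 0.09 (unadjusted p = 0.111). Neu4, a sialidase, fell by 0.51 and 0.69 on its brightest probe, while its dimmer probe gave changes of -0.23 and -0.17.

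Il7r, the interleukin-7 receptor of lymphocytes, fell by 0.99 and 0.96, and Cd79b, a B cell receptor subunit, fell by 0.70 and 0.77. Gp9, a platelet glycoprotein, fell by 0.75 and 1.06, an interaction of -0.31 ± 0.26. Of the other 4 called genes, Ccl9, a chemokine, fell by 0.67 and 0.70, and Prc1, which builds the midzone of the mitotic spindle, fell by 0.71 and 0.61. Tmem45a, a membrane protein, fell by 0.46 and 0.69, and Gm10790 fell by 0.49 and 0.40. Of the 10 genes, 7 fell further in the labelled knockout, with a median interaction of -0.11. Among the 22 genes that rose, 11 had a positive interaction and the median was 0.00.

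The genes with the smallest interaction p were mostly dim ones with opposite small changes. Of the 377 probes at an unadjusted p under 0.05, 310 were positive, with a median level of -4.31, and 67 were negative, with a median level of 0.08. The median level of all kept probes was -0.58. The split depends on scaling and background: with quantile normalization 97 of 216 such probes were positive, and with normexp background correction 873 of 943. None of the genes described next was called, all having an adjusted p of 1.0 by limma with Benjamini-Hochberg adjustment.

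On the positive side, Smgc, a secreted protein known from salivary gland, had the smallest p. It read -4.96, -4.95, -4.57 and -4.79 in wild-type sham, -5.16, -5.45, -5.32 and -5.16 after irradiation, -4.94, -4.95, -5.09 and -4.85 in labelled knockout sham and -4.69, -4.67, -4.52 and -4.91 after irradiation. The groups separated in wild type and nearly so in the labelled knockout, with an interaction of 0.71 ± 0.17.

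Pik3ap1, an adaptor that links immune receptors to PI3 kinase, read -5.67, -5.68, -5.35 and -5.00 in wild-type sham and -5.60, -5.85, -5.71 and -5.51 after irradiation. Labelled knockout arrays read -5.30, -5.60, -5.02 and -5.03 in sham and -4.56, -4.81, -4.25 and -4.18 after irradiation. Irradiated and sham arrays overlapped in wild type and were apart in the labelled knockout, and the interaction was 1.03 ± 0.26, with an interval from 0.48 to 1.58 (unadjusted p = 0.00125).

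Col6a5, a collagen VI chain, had the largest interaction of the named genes, 1.37 ± 0.38. It went from -3.20, -3.55, -3.60 and -2.88 to -3.88, -3.75, -4.49 and -4.78 in wild type, and from -3.88, -3.52, -3.86 and -4.66 to -3.17, -3.53, -3.84 and -3.58 in the labelled knockout. Here the wild-type arrays separated and the labelled knockout arrays overlapped. Hpgds, the haematopoietic prostaglandin D synthase, likewise gave -0.57 in wild type against 0.06 in the labelled knockout.

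Other genes on this side had interactions between 0.53 and 1.08. They included the pseudogene Ppp4r1l-ps, the glutathione-degrading enzyme Ggt1, the antigen-presenting molecule Mr1, and the less known Gm26637 and 1700034P13Rik. A second probe of Mr1 gave 0.06 ± 0.28 beside the 0.57 ± 0.19 of the brighter one, and a second probe of Ppp4r1l-ps gave 0.37 ± 0.28 beside 0.53 ± 0.14.

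On the negative side, Ccl24, an eosinophil-attracting chemokine made by macrophages, had the smallest p. It stood at -3.52, -3.80, -3.60 and -3.72 in wild-type sham and at -4.13, -3.76, -3.72 and -3.60 after irradiation. In the labelled knockout it stood at -3.72, -3.49, -3.52 and -3.71 in sham and at -4.26, -4.78, -4.31 and -4.39 after irradiation. The labelled knockout arrays separated and the wild-type arrays overlapped, an interaction of -0.69 ± 0.20 (unadjusted p = 0.00309). With normexp background correction, which changes how dim spots are treated, the value was -0.10.

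Gadd45g, a stress-inducible growth arrest gene, stood at 3.06, 2.95, 2.88 and 2.76 in wild-type sham and at 3.36, 2.90, 3.14 and 2.85 after irradiation. Labelled knockout arrays stood at 2.91, 3.27, 2.78 and 3.15 in sham and at 2.54, 2.75, 2.64 and 2.60 after irradiation. The wild-type arrays overlapped and the labelled knockout arrays were apart, an interaction of -0.54 ± 0.19. Ebi3, a subunit shared by interleukins of the interleukin-12 family, gave 0.15 and -0.29, and Srgap3, a Rac-inactivating protein of neuronal branching, gave -0.02 and -0.45.

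Other negative genes had interactions between -0.48 and -0.35. They included the chromatin reader Dido1, the phosphoesterase Tmppe, the neurotrophin-3 receptor Ntrk3, the chondroitin sulphate enzyme Csgalnact1 and the dynein chain Dync1li1. For Dido1 the other 3 kept probes gave 0.07 to 0.52, opposite in sign to the brightest. For Ntrk3 the other 3 gave -0.33 to 0.12. Across the 5862 genes with several kept probes, the interactions of the 2 brightest probes correlated with Pearson r 0.42 and had the same sign in 63.9% (across genes, measured on the same arrays). Of the 126 genes whose brightest probe exceeded 0.5 in size, the next probe had the same sign in 105 and also exceeded 0.5 in 44.

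**Figure D2:**
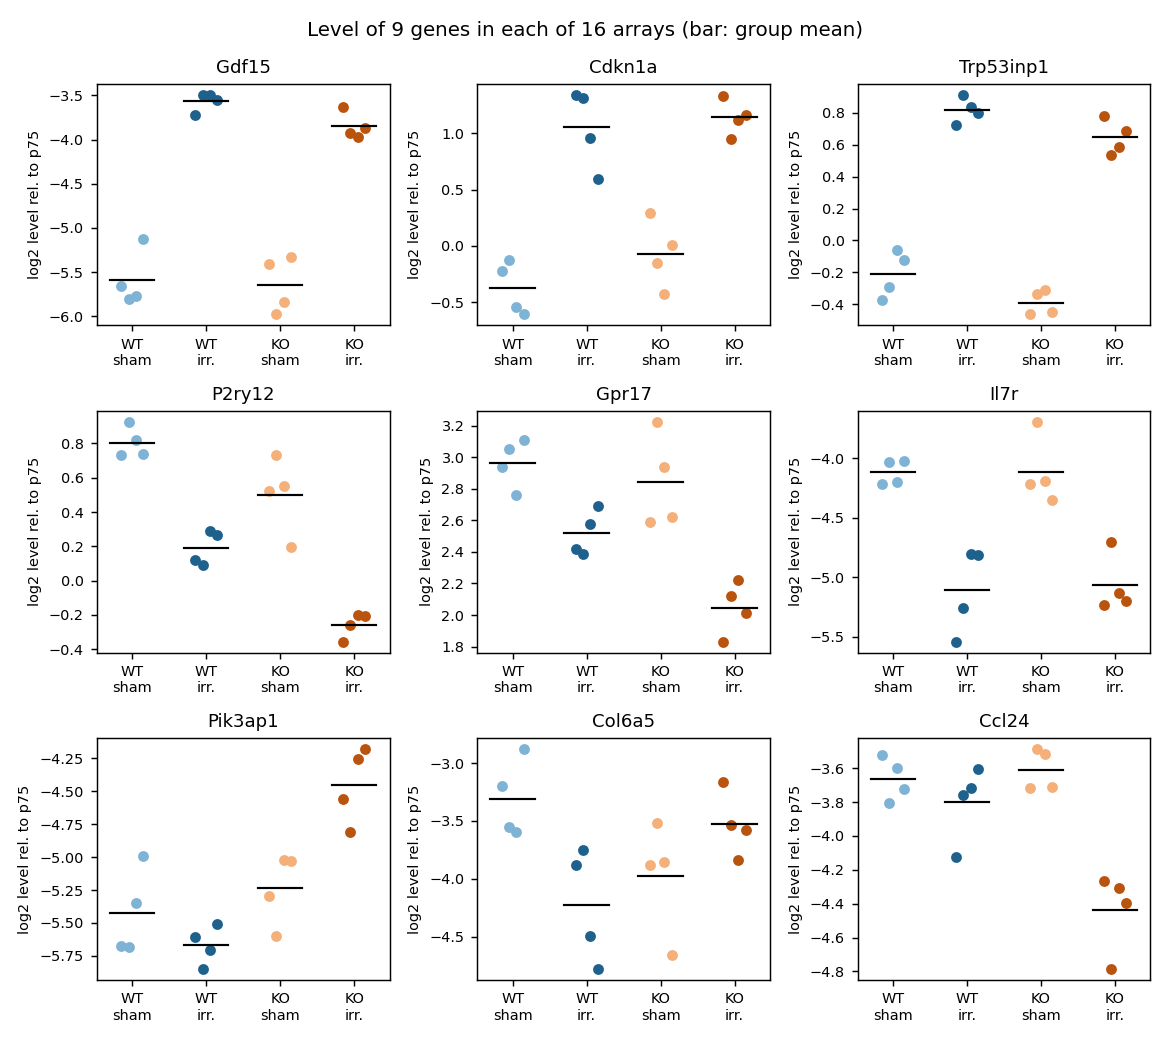
Log2 level relative to the array's 75th percentile (y axis) in each of 16 arrays for 9 genes, by group (x axis, 4 arrays each, black bar for the group mean, irr. for irradiated). Gdf15, Cdkn1a, Trp53inp1, P2ry12, Gpr17 and Il7r shifted the same way in both genotypes. Pik3ap1, Col6a5 and Ccl24, among the genes of smallest interaction p, shifted in 1 genotype by 0.79, -0.92 and -0.83 and in the other by -0.24, 0.45 and -0.14.

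Interferon-stimulated genes, whose products block viruses and present antigen, had mostly positive interactions. Of 45 tested members, 41 were above 0, against 43.9% of all named genes, and their median was 0.18. Median responses were 0.08 in wild type and 0.24 in the labelled knockout, with 28 and 40 members higher. Only 1 member had an unadjusted p under 0.05, and none was called in the interaction or on average. The median level of the list was -1.40, and interactions of dim probes were shifted upward across the array, as described at the end. That level lies in decile 5 of kept probes (1 for the dimmest). In this decile the median interaction was 0.03 and 56.6% of probes were above 0. With cyclic loess normalization the median of the list was 0.11, with 37 members above 0. With quantile normalization it was 0.12, with 38 above 0. The part of probe level in the values of the list was not tested.

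Usp18, which trims the ubiquitin-like protein ISG15 from its targets and restrains interferon signalling, was that member. It stood at -3.62, -3.57, -3.23 and -3.16 in wild-type sham and at -3.58, -2.75, -2.82 and -2.90 after irradiation. In the labelled knockout it stood at -3.58, -3.93, -3.55 and -4.19 in sham and at -2.13, -2.82, -3.18 and -2.79 after irradiation. The arrays overlapped in wild type and separated in the labelled knockout, with an interaction of 0.70 ± 0.33 (unadjusted p = 0.0492). Oasl2, an antiviral protein of the oligoadenylate synthetase family, gave 0.47 and 0.90, and Parp12, an antiviral ADP-ribosyltransferase, gave -0.23 and 0.17.

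The mean level of the 45 members in each sample shows how much single arrays weigh. It was -1.25, -1.27, -0.95 and -1.03 in wild-type sham and -1.27, -0.87, -0.93 and -0.93 after irradiation. Labelled knockout arrays had a mean of -1.31, -1.49, -1.32 and -1.33 in sham and -0.74, -1.12, -1.38 and -0.92 after irradiation. Irradiated and sham arrays overlapped in both genotypes. Group means were -1.12 in sham and -1.0 in irradiated wild-type samples, against -1.36 and -1.04 in labelled knockout samples. The irradiated groups thus lay close together, and the labelled knockout sham group was the lowest. Levels of the genotypes are compared across slides here. Without irradiated wild-type replicate 1 the list's median interaction was 0.09. It was 0.10 without irradiated labelled knockout replicate 1 and 0.09 without wild-type sham replicate 3.

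Upstream sequences of the interferon-stimulated genes were searched for the core of the interferon-stimulated response element. This core is GAAA, any 2 bases and GAAA again. Both strands were searched in the 250 bases before each annotated start in RefSeq on GRCm38.p6. The list holds known interferon-stimulated genes, so a higher share of matches than in other genes follows from its making, whatever the interaction. Of the 37 members with an upstream window, 14 (37.8%) held a match, against 3.46% of all 27025 genes with a window. In other lists it was 4 of 20 immediate early genes (20%), 1 of 40 p53 targets and 0 of 17 mature oligodendrocyte genes. The 14 members with a match had a median interaction of 0.13 and the others 0.18. The 3 windows printed here were picked because they hold more than 1 match. Capitals mark the matches, and overlapping matches run together.
Isg15, chr4:156200819-156201068, minus strand: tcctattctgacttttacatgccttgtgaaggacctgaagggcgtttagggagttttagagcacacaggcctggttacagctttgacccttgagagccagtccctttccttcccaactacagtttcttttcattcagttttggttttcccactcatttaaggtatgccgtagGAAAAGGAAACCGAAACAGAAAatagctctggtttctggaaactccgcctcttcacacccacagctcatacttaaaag
Ifit1, chr19:34640639-34640888, plus strand: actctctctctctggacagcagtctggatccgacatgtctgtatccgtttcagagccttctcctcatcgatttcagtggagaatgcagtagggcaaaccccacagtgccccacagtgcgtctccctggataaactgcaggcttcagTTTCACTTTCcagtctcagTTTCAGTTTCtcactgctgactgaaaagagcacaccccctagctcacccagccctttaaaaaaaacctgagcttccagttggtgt
Oas1a, chr5:120907526-120907775, minus strand: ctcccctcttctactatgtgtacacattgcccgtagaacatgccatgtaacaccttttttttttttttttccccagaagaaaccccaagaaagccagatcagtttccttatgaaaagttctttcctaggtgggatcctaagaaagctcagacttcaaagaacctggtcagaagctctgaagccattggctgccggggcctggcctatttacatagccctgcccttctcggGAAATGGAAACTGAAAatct

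The genes of these windows gave changes of 0.41 and 0.63 for Isg15, the secreted ubiquitin-like modifier, in wild type and labelled knockout. They gave 0.35 and 0.71 for Ifit1, which binds foreign RNA ends, and 0.32 and 0.75 for Oas1a, which makes the activator of RNase L. Their interactions of 0.22 ± 0.30, 0.36 ± 0.38 and 0.43 ± 0.33 all had intervals that include 0. A match is a description of the sequence and says nothing of binding in these samples.

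**Figure D3:**
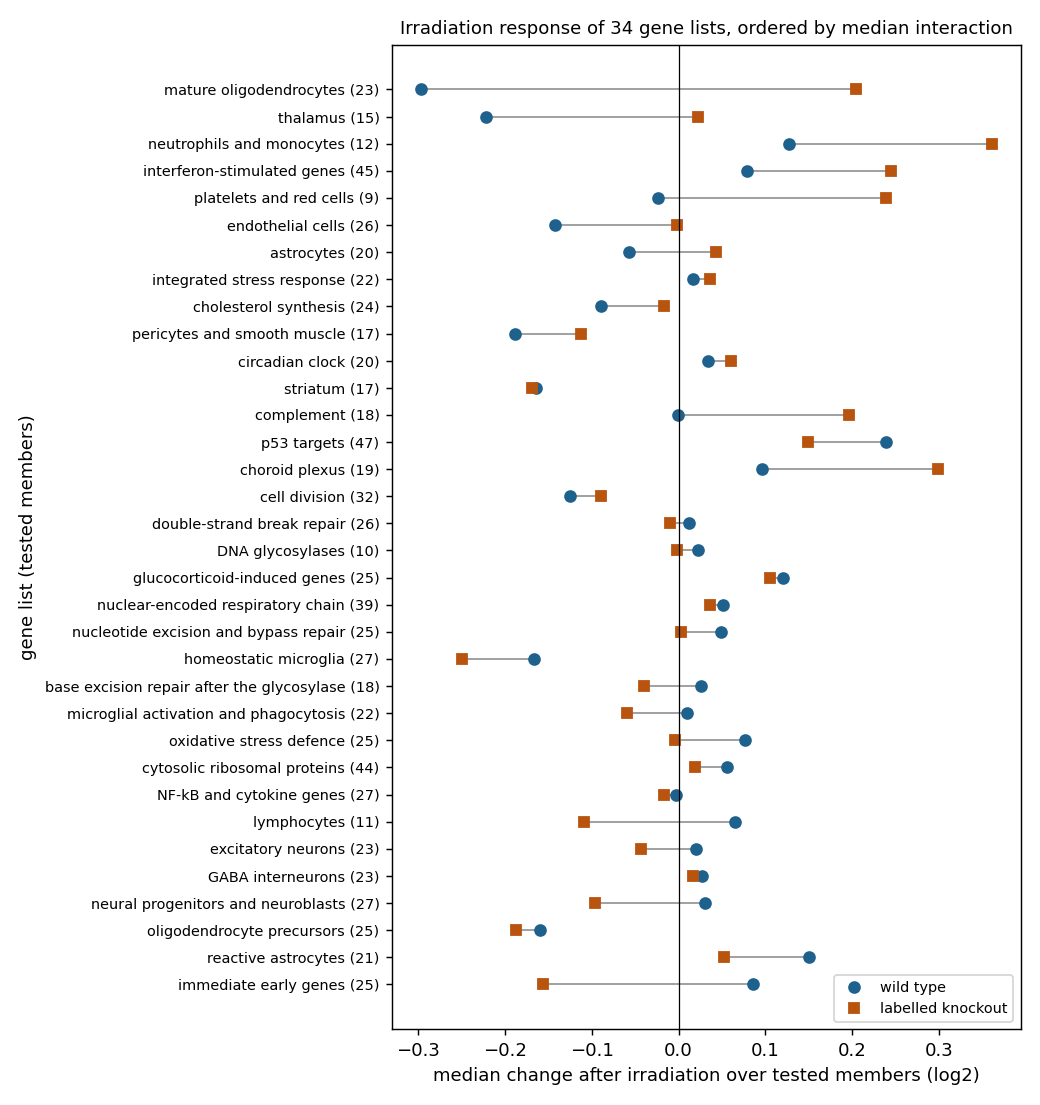
Median change after irradiation (x axis, log2) over the tested members of 34 gene lists, for wild type (circles) and labelled knockout (squares), with the number of tested members in parentheses. Lists are ordered by median interaction, from immediate early genes at -0.25 to mature oligodendrocyte genes at 0.49, and no list held a member called in the interaction.

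Mature oligodendrocyte genes, which build and maintain myelin, had the largest median interaction of the 34 lists. All 23 tested members were positive, with a median of 0.49 and a range from 0.23 to 0.96. All 23 were lower after irradiation in wild type, with a median of -0.30, and 21 were higher in the labelled knockout, with a median of 0.20. None was called, and 1 had an unadjusted p under 0.05, Myrf, the transcription factor that drives myelin genes, at 0.96 ± 0.40 (unadjusted p = 0.029). Mobp gave -0.37 and 0.45, and Mbp, a main structural protein of myelin, gave -0.34 and 0.48 on its brightest probe, with SEs of the interaction of 0.56 and 0.63. A second Mbp probe of nearly the same brightness, at a level of 3.88, gave 0.05 and -0.16, an interaction of opposite sign at -0.21 ± 0.23, and its dimmest kept probe gave 0.99 ± 0.65.

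Myelin genes varied widely between samples of the same group. The mean level of the 23 genes was 1.59, 2.40, 2.51 and 2.55 in wild-type sham and 2.01, 2.34, 2.13 and 1.34 after irradiation. It was 2.53, 1.16, 1.76 and 2.34 in labelled knockout sham and 2.52, 1.81, 1.74 and 2.54 after irradiation. The 4 groups overlapped throughout. Without labelled knockout sham replicate 2 the median interaction fell to 0.24, without irradiated wild-type replicate 4 to 0.29, and without irradiated labelled knockout replicate 4 to 0.33. With array weights it was 0.91.

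Genes of neighbouring brain regions also varied between samples of 1 group. The mean level of 17 striatal genes ran from 1.40 to 2.99 in sham and 0.22 to 3.59 in irradiated wild-type samples, and from 0.58 to 3.18 in sham and 0.75 to 2.71 in irradiated labelled knockout samples. The striatal dopamine receptor gene Drd1 was above background on all 16 arrays. Irradiated wild-type replicate 4, the lowest of its group in myelin genes, was also the lowest in striatal genes, while labelled knockout sham replicate 2, the lowest in myelin genes, stood at 1.15 in striatal genes. Other arrays went the other way. Irradiated labelled knockout replicate 4 was the lowest of its group in striatal genes (0.75) and the highest in myelin genes (2.54). Labelled knockout sham replicate 4 stood at 0.58 and 2.34, and irradiated wild-type replicate 2 at 1.17 and 2.34. The list of 15 thalamic genes had a median interaction of 0.22, which was 0.05 without wild-type sham replicate 2, whose mean of 1.44 lay far above the 0.38 to 0.62 of its group. The part of dissection in these list values was not tested.

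Oligodendrocyte precursor genes did not follow the mature ones. Their median interaction was -0.12, with 8 of 25 members positive (-0.06 without irradiated wild-type replicate 3), and median responses were -0.16 in wild type and -0.19 in the labelled knockout, with 20 and 21 members lower. Gpr17 and Neu4 were the 2 members called lower on average. Ptprz1, a receptor phosphatase, gave -0.02 and -0.46, and the proteoglycan gene Vcan gave -0.25 and -0.68 on its brightest probe, with a second probe at an interaction of 0.03.

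Immediate early genes, which neurons switch on within minutes of activity, had the lowest median interaction of the 34 lists, -0.25. Of 25 tested members 4 were positive, and 18 were higher in wild type while 19 were lower in the labelled knockout. None had an unadjusted p under 0.05. Gadd45b, a stress and activity gene, gave 0.06 and -0.29, and Bdnf, the neurotrophin, gave 0.19 and -0.07.

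The mean level of these 25 genes was 2.07, 1.70, 2.06 and 1.61 in wild-type sham and 1.94, 2.30, 1.75 and 1.77 after irradiation. It was 1.78, 2.12, 1.82 and 2.27 in labelled knockout sham and 1.82, 2.07, 1.66 and 1.86 after irradiation. All 4 groups overlapped. The median interaction shrank to -0.09 without irradiated wild-type replicate 2 and to -0.13 without irradiated labelled knockout replicate 3. The cyclic AMP response element, searched as TGACGNCA on either strand, occurred upstream of 6 of the 20 members with a window (30%), against 3.16% of all genes, 5 of 40 p53 targets (12.5%) and 2 of 37 interferon-stimulated genes (5.41%). Those 6 had a median interaction of -0.29, against -0.25 for the others. The list was not made from the interaction, so its share of matches does not bear on the interaction.

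**Figure D4:**
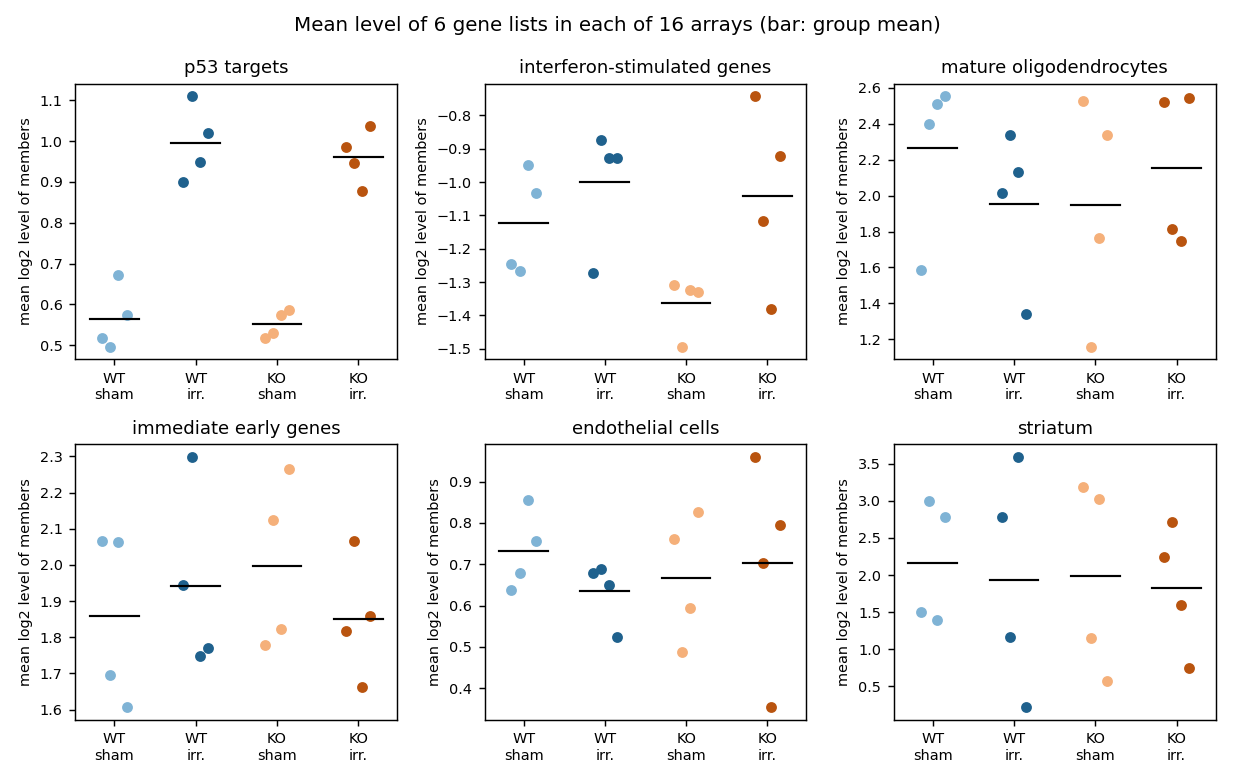
Mean log2 level of the tested members of 6 gene lists (y axis) in each of 16 arrays, by group (x axis, 4 arrays each, black bar for the group mean, irr. for irradiated). Irradiated and sham arrays separate for p53 targets in both genotypes, from 0.50 to 0.67 against 0.90 to 1.11 in wild type and from 0.52 to 0.59 against 0.88 to 1.04 in the labelled knockout, and overlap within a genotype for the interferon, oligodendrocyte, immediate early, endothelial and striatal lists.

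No list that bears on neuroinflammation held a member called in the interaction. Homeostatic microglial genes were lower after irradiation in both genotypes, with 25 of 27 members lower in wild type and 20 in the labelled knockout. Their median responses were -0.17 and -0.25, and the median interaction was -0.02, with 10 members positive. By brightest probe, P2ry12 was the 1 member called on average. Siglech, a microglial lectin, gave 0.00 and 0.66 on its brightest probe, an interaction of 0.66 ± 0.47. Its other, dimmer probe was called lower on average, with -0.63 and -0.81.

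Genes of microglial activation and phagocytosis had a median interaction of -0.03, with 9 of 22 positive. The phagocyte enzyme Lyz2 gave 0.05 and 0.60, and the lysosomal marker Cd68 gave 0.34 and 0.03. Complement genes had a median of 0.01, with 10 of 18 positive. NF-kB and cytokine genes had a median of -0.06, with 11 of 27 positive, and Ccl24 was the 1 member with an unadjusted p under 0.05. The adhesion molecule Vcam1 gave 0.05 and -0.33 (unadjusted p = 0.0552; a dimmer probe 0.23 and 0.35) and the prostaglandin synthase Ptgs2 gave 0.15 and -0.35. Reactive astrocyte genes had a median of -0.13, with 6 of 21 positive, which became -0.01 with 9 positive without irradiated wild-type replicate 3. Among them the cell adhesion gene Amigo2 gave 0.25 and -0.42.

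Blood cell lists rested on few members. Of the lymphocyte list 11 of 24 genes on the array were tested, with a median interaction of -0.08. For neutrophils and monocytes it was 12 of 21, with 0.22, and for platelets and red cells 9 of 19, with 0.14. The red cell gene Hba-a1 was above background on all 16 arrays, with levels from 0.18 to 5.45. Its part in these lists was not tested. Single arrays weighed heavily: the neutrophil and monocyte median was 0.06 without wild-type sham replicate 1, and that of platelets and red cells ran from 0.03 without irradiated labelled knockout replicate 1 to 0.34 without irradiated wild-type replicate 1. With cyclic loess the 2 medians were 0.04 and 0.01.

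The endothelial list had 23 of 26 members above 0, with a median interaction of 0.11 and median responses of -0.14 and 0.00, and none had an unadjusted p under 0.05. Without irradiated labelled knockout replicate 1 the median was 0.04 with 14 members above 0, and without labelled knockout sham replicate 2 it was 0.05 with 16. Mfsd2a, a lipid transporter of the blood-brain barrier, gave -0.06 and 0.12. The pericyte marker Rgs5 gave -0.35 and 0.16, in a list whose median was 0.05.

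In the lists that bear on neurogenesis no member was called and none had an unadjusted p under 0.05, setting aside mature neuron markers. Of 51 cell division genes on the array, 32 were tested and 19 were left out as not above background on every array, among them Mki67, Top2a and Cdk1. The 32 had a median interaction of 0.00, with 17 positive, and were lower in 22 cases in wild type and 24 in the labelled knockout. The median responses were -0.13 and -0.09. Spc25 was called higher and Prc1 lower on average. The smallest unadjusted p was 0.17 for Anln, a cytokinesis protein.

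Neural progenitor and neuroblast genes had a median interaction of -0.10, with 10 of 27 positive, and -0.05 without irradiated wild-type replicate 1. The transcription factor Sox4 gave -0.14 and -0.44, and the progenitor surface marker Prom1 gave 0.05 and 0.42. Excitatory neuron genes had a median of -0.09, with 6 of 23 positive, and GABA interneuron genes the same median with the same count. The first was 0.00 without wild-type sham replicate 2 and the second -0.01 without irradiated wild-type replicate 1. The serotonin receptor gene Htr3a gave 0.31 and -0.50 (unadjusted p = 0.0383), and a second probe of it gave an interaction of -0.47. Choroid plexus genes had a median of 0.01 (0.34 without irradiated labelled knockout replicate 2), with Ttr, a thyroxine carrier, between -1.85 and 1.95 on single arrays.

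No DNA repair gene was called in the interaction. Neil1 itself gave -2.73, -3.16, -3.35 and -3.01 in wild-type sham, -2.82, -3.00, -3.72 and -3.09 after irradiation, -1.59, -1.90, -2.01 and -1.73 in labelled knockout sham and -1.64, -2.0, -1.57 and -1.96 after irradiation. The probe was brighter in the labelled knockout, and where it lies relative to the deletion is not known here, so it does not check the genotype labels. Its interaction was 0.11 ± 0.27, with an interval from -0.46 to 0.68.

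Of 10 DNA glycosylases 5 had a positive interaction, with a median of 0.00. Neil2, a paralogue of Neil1, gave -0.12 and 0.26, an interaction of 0.39 ± 0.42, while Tdg and Smug1, which remove mismatched or deaminated bases, gave -0.14 ± 0.21 and -0.15 ± 0.18. Dimmer probes of these genes gave 0.06 for Neil2, -0.18 for Tdg, and -0.003 and 0.49 for Smug1. The 18 later base excision repair genes had a median of -0.03, the 26 double-strand break repair genes 0.00 and the 25 nucleotide excision and bypass repair genes -0.02. By brightest probe, none of the members of these repair lists had an unadjusted p under 0.05. Dimmer probes of Ercc2 and Rad23b, both of nucleotide excision repair, gave interactions of 0.61 ± 0.28 and 0.58 ± 0.27, each under 0.05 by limma. A further Rad23b probe gave 0.38 ± 0.33. The end-joining ligase Lig4 gave 0.15 and -0.13, and Brca1, of homologous recombination, gave 0.02 and -0.49.

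Stress and housekeeping lists had medians within 0.07 of 0, and leaving out single arrays moved them between -0.10 (ribosomal proteins) and 0.16 (clock genes). Their medians were -0.04 for 25 oxidative stress defence genes, 0.07 for 22 integrated stress response genes, -0.01 for 25 glucocorticoid-induced genes and 0.02 for 20 clock genes. They were -0.02 for 39 respiratory chain genes, -0.05 for 44 ribosomal protein genes and 0.05 for 24 cholesterol synthesis genes. Hmox1, the haem oxygenase, gave 0.13 and 0.54, and Ddit3, a transcription factor of the unfolded protein response, gave 0.13 and -0.15. The astrocyte list had a median of 0.08, with 14 of 20 positive, and 0.00 without irradiated labelled knockout replicate 4.

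The sign of the interaction followed the brightness of the probe. In the dimmest decile of kept probes the median interaction was 0.23 and 76.8% were above 0. In the brightest decile the median was -0.05 and 33.8% were above 0. The dimmest decile changed by a median of 0.16 in the labelled knockout and -0.05 in wild type. This is measured over probes that were all above background, and it runs beside the lower brightness of the irradiated labelled knockout arrays. Its part in the positive interactions of dim genes such as Smgc, Pik3ap1 and Usp18 was not tested. After cyclic loess normalization, which levels such trends, 99 of 295 probes at an unadjusted p under 0.05 were positive, and Smgc stood at 0.44.

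**Figure D5:**
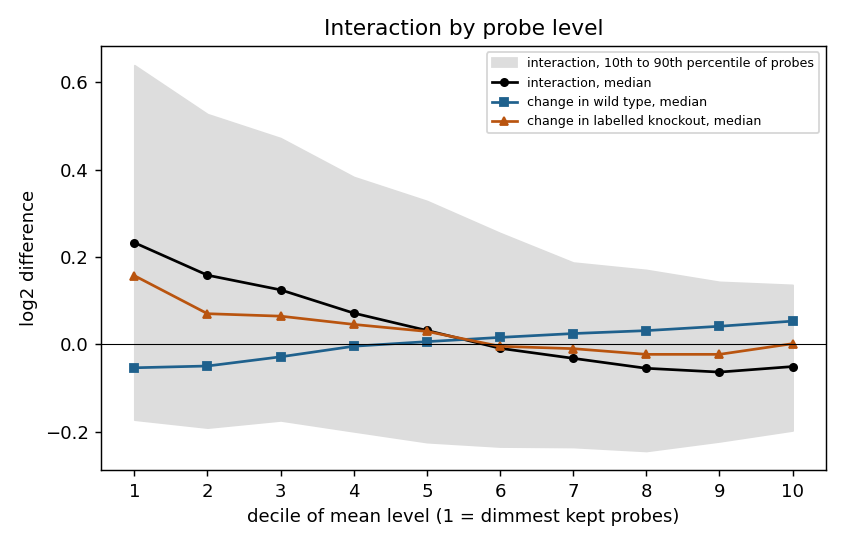
Median interaction (black), median change in wild type (squares) and in the labelled knockout (triangles) by decile of mean probe level (x axis, 1 for the dimmest of 32121 kept probes), in log2 units (y axis), with the 10th to 90th percentile of interactions in grey. The median interaction goes from 0.23 in the dimmest to -0.05 in the brightest decile.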

How the data were processed

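Cerebral cortex RNA of 16 samples, labelled with Cy3, was measured on 1-colour Agilent arrays. Per the file headers, each array was scanned in 1 channel at 3 micron and extracted with Agilent Feature Extraction. The deposited processed signal is an intensity after background subtraction and detrending, without scaling between arrays. The deposited flags (outlier, saturated, well above background) are another kind of value. The authors also deposited a table of scores for 42859 features. Its columns hold the same values in another order to within 0.01, and they were taken for z-scores of arrays brought to 1 distribution and used as an alternative. The steps behind it are not given in the sources used. Aligned to it, 40169 of the 56605 probes have a score, among them all 32121 kept ones.

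Control spots were left out, outlier spots set to missing (91 values of kept probes), and spots of a probe averaged. Log2 processed signal minus the log2 of the array's 75th percentile was tested with limma 3.58.1 (R 4.3.3), with 1 mean per group over 16 arrays, 12 residual degrees of freedom, moderated variances and two-sided p-values adjusted by Benjamini-Hochberg over all kept probes. Intervals are 95%. Their precision is limited by the number of arrays. RefSeq accessions were listed for 35886 probes, and a RefSeq gene table on GRCm38.p6 gave 32989 of them a symbol. The array design names another build, so the table gave names only. Of kept probes 23041 were named and 9080 were not. A gene with several kept probes (5862 genes) is given by its brightest probe.

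The named genes are the 10 of smallest interaction p in each direction (none was called), the 12 rises and 10 falls called on average, Neil1, all tested p53 targets and up to 3 members of smallest p per list. Some genes that the rule names are not reported here. Other names were chosen after their values were seen. The members, lists and tests were chosen with earlier results of these data known. Brightness was compared by exact permutation tests. The code was tested on simulated data. Arrays with the same number in their titles had deviations from the group means that correlated from -0.56 to 0.52, over 0.1 in some pairs only. A second numbering, in the description labels, gave correlations over 0.1 in 3 of 3 pairs between labelled knockout sham and wild-type sham (0.22 to 0.36) and between irradiated labelled knockout and wild-type sham (0.19 to 0.49), but in 0 of 3 between irradiated and sham wild type. Neither held for every pair, so numbers were not used as pairs. At most 0.358% of values were equal (within 0.001) between arrays of a group. Alternatives were other background, scaling, filter, variance and block settings and leaving out each array. The mean foreground signal was not in the columns used here, so normexp used the median signal with an offset of 50. A block for slide could not be fitted beside genotype, and slide column is the same as replicate number.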

Additional observations from a re-analysis of the deposited data

Results flagged for a closer look

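In 18 of 304 groups of 4 arrays (5.92%, over 41 genes, 34 list means and array brightness), 1 array lay far from the other 3, by Dixon's ratio of the gap to the group's range at its 95% critical value. Chance gives about 1 in 20 groups. Levels are log2, relative to the array's 75th percentile.

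Among genes, an irradiated wild-type array stood apart for Gm26637 (replicate 3 at -5.04, the others from -5.87 to -5.80). Irradiated labelled knockout arrays stood apart for Hpgds (replicate 2 at -3.12) and Tnfrsf10b (replicate 1 at -2.24). Labelled knockout sham arrays stood apart for Avil (replicate 2 at -4.35), Tmem45a (replicate 4 at -3.31) and Gm10790 (replicate 4 at -2.75), and a wild-type sham array for Prc1 (replicate 4 at -2.91).

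Among list means, interferon-stimulated genes were low in irradiated wild-type replicate 1 at -1.27 (the others from -0.93 to -0.87) and in labelled knockout sham replicate 2 at -1.49. Mature oligodendrocyte genes were low in wild-type sham replicate 1 at 1.59 (the others from 2.40 to 2.55). In the same sample neutrophil and monocyte genes were high at -1.67. In labelled knockout sham replicate 2, complement genes were low at -0.94 and choroid plexus genes high at -1.30. Other labelled knockout sham arrays stood apart for oligodendrocyte precursor genes (replicate 3 at 0.0922) and NF-kB and cytokine genes (replicate 1 at -2.13). In irradiated labelled knockout replicate 3, lymphocyte genes were high at -2.0 and platelet and red cell genes low at -0.44, and in replicate 1 neural progenitor genes were low at -0.20.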

How the results depend on the processing

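The interaction gave 0 calls by limma in the reported setting and in all 34 alternatives, with 73 probes (only probes above the median level) to 1781 probes (without the 2 dimmest irradiated labelled knockout arrays) at an unadjusted p under 0.05. The smallest adjusted p in any alternative was 0.737, with no filter on dim probes. The average response gave 47 calls. It gave 76 with array weights, 16 among probes above the median level and 27 without those 2 dimmest arrays. Leaving out each array in turn gave 36 to 48. With the replicate number as a block there were 0 interaction calls and 53 average calls, 44 of them among the 47, and 7 of 16 arrays correlated best with an array of their own number, so the block is given here only. With the number of the description labels as a block there were 0 interaction calls, 959 probes at an unadjusted p under 0.05 against 377, and 56 average calls. The 20 genes of smallest interaction p kept their sign in every alternative that gave them a value. They were chosen by that p in the same arrays, and some alternatives cannot change a gene's value. Their kept signs are therefore no independent support. The interaction of Gdf15 ran from -0.49 to 0.01 and that of Cdkn1a from -0.37 to 0.04. List medians moved by more than the spread between arrays in 18 cases and by less in 1105. These counts do not measure robustness. Some alternatives, such as other variance or filter settings, cannot move a list median, and the z-score and deposited score alternatives are in other units. Cyclic loess was chosen after seeing the data. A slide block was not run, since each slide holds 1 genotype. Differences under about 1.45-fold lie within the median interval, and dim probes are less precise.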
